A study of Homo sapiens with 6 samples.

Results

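The subunits of the transcription factor AP-1 were followed in MDA-MB-231 cells in which SOX4 had been depleted. The members were 10 genes, FOS, FOSB, FOSL1, FOSL2, JUN, JUNB, JUND, BATF3, MAFF and MAFK, of 31424 gene symbols on the array. They were taken by symbol with no filter on their values, and 13 probes of the array carry one of these symbols. The set itself was chosen with earlier results of these data known. MDA-MB-231 is an established human line, triple-negative and mesenchymal in character, derived from a breast cancer, and its RNA was hybridised to Illumina HumanHT-12 v4 arrays. One group carried a scrambled short hairpin RNA (shRNA) and the other the hairpin shSOX4#1 against SOX4, a transcription factor with an HMG box, with 3 arrays each. Both groups were transduced and grown in the same medium with fetal bovine serum. The model is limited to a single hairpin and a single cell line, and separate cultures are not mentioned in the labels. The spread behind each p-value is thus that of these arrays and may be technical.

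AP-1 is a dimer of basic leucine zipper (bZIP) proteins. JUN proteins can pair with each other or with FOS proteins, while FOS proteins need a JUN partner to bind DNA, and the dimers recognise short palindromic elements in many promoters and enhancers. BATF3 and the small MAF proteins MAFF and MAFK carry a bZIP domain but no activation domain, and they change the activity of the dimers they join. FOS, FOSB, JUN and JUNB are immediate early genes, transcribed within minutes of growth factor or stress signals through MAP kinases, and FOSL1 is known for its high level in mesenchymal breast cancer lines. The activity of AP-1 also depends on phosphorylation and protein stability, which an array of transcripts does not measure.

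Values are log2 signals after background correction and quantile normalization, and a difference is SOX4 shRNA minus scrambled. A probe counted as detected on an array at a detection p under 0.01, and a gene was tested where 3 of the 6 arrays detected its probe. Each array detected 15197 to 16187 of its 47322 probes, and precision is limited by having 3 arrays per group. SOX4 itself had log2 signals of 7.711, 7.996 and 7.962 on the scrambled arrays and 5.22, 5.75 and 5.42 on the SOX4 shRNA arrays. The SOX4 shRNA arrays were lower without overlap (difference -2.43 ± 0.14 SE, adjusted p = 4.1e-13, limma). The SOX4 probe was detected on 3 scrambled arrays but on only 2 SOX4 shRNA arrays, so the size of the drop is uncertain. The fitted fold was 0.19, and the authors' deposited table lists 0.11. The markers fixed for this line, VIM, CD44, AXL, CAV1, LGALS1 and MSN, were detected on all 6 arrays, and ESR1, PGR, CDH1 and KRT5 on 0. A pair of scrambled arrays share the heading of replicate 2 and are called 2a and 2b. Among the markers of other cell types, PTPRC, CD3D, CDH5, VWF, KDR, PDGFRA and DCN were detected on 0 arrays. CD68 was detected on all 6, LYZ on 3 scrambled arrays and 2 with the SOX4 hairpin, LUM on 0 and 3, PECAM1 on 1 and 2, and COL1A1 on 1 and 0. Their part in the results was not tested.

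No AP-1 subunit passed the test. Of the 10 members, 7 had a probe above background on enough arrays to be tested, and 0 of these 7 were higher or lower at an adjusted p under 0.05 in limma. Across all 12451 genes and unnamed probes tested, 30.6% passed, 15.2% higher and 15.4% lower with the SOX4 hairpin. At an unadjusted p under 0.05 there was 1 tested member, FOSL2. In the authors' value table, where 6.23% of all genes passed, 0 of the 10 members passed and 2 had an unadjusted p under 0.05, FOSB and FOSL2. In either set the share of all genes at an unadjusted p under 0.05 is at least the adjusted share. It was not counted, so these unadjusted counts say little about the members. The median difference of the 7 tested members was -0.01, as was that of all genes. The size of the difference was below 0.074, the lower quartile of all genes, for 5 of the 7 (FOSL1, JUN, JUND, BATF3 and MAFF), and above 0.30, the upper quartile, for FOSL2 and JUNB. The groups did not overlap for 42.0% of all genes tested and for 0 of the 7 members.

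**Figure D1:**
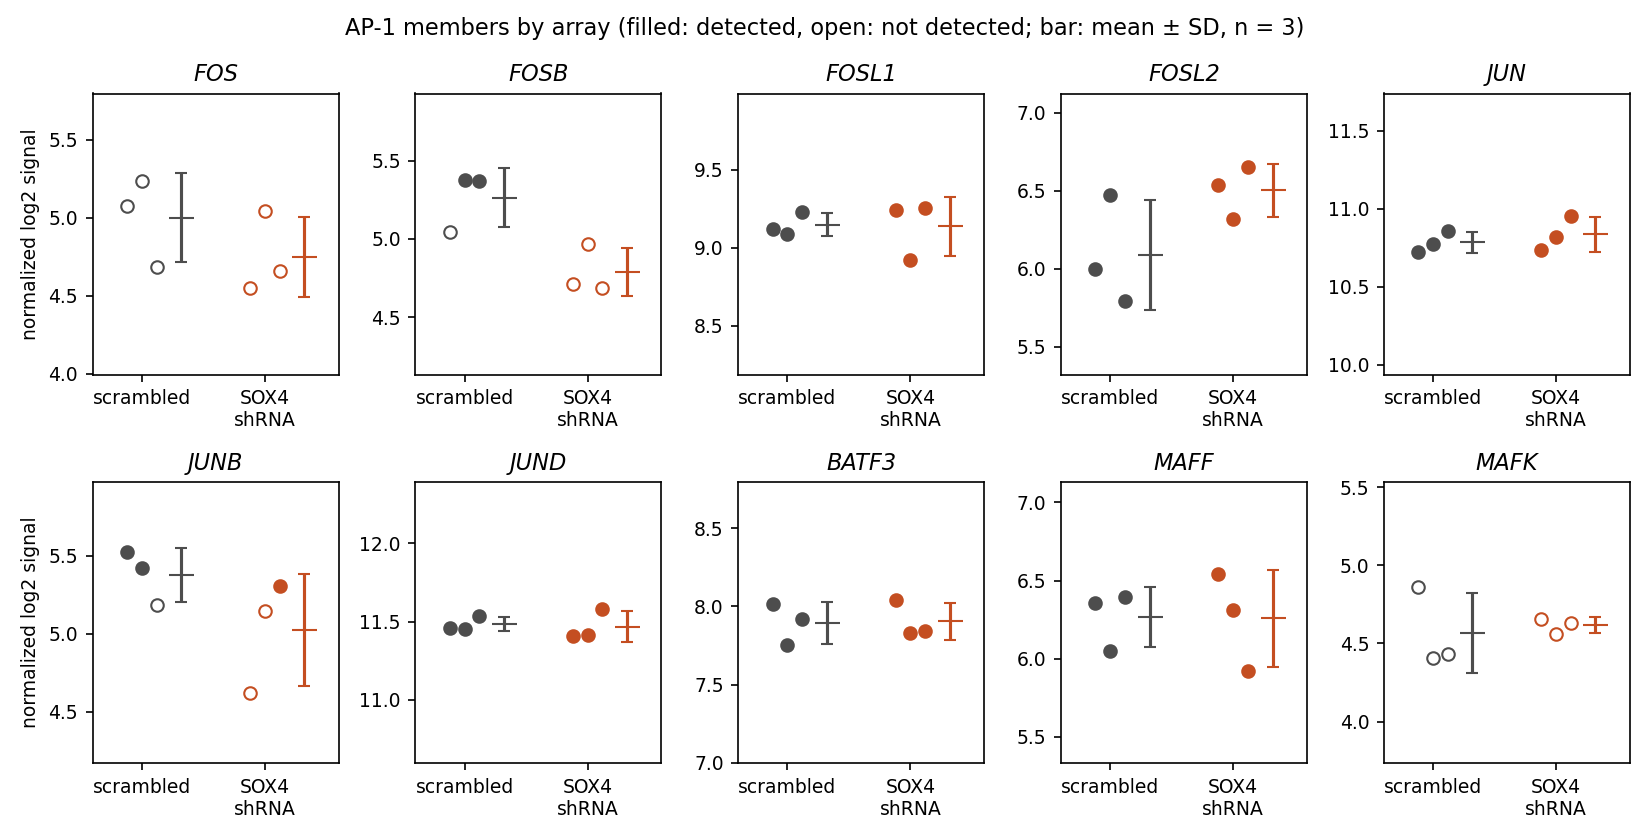
Normalized log2 signal of each AP-1 member on the 3 scrambled and 3 SOX4 shRNA arrays, drawn on y axes of equal length but different position. Points are arrays, filled where the probe was detected, and bars are means ± SD. The groups overlap in every panel except FOSB, where 3 SOX4 shRNA arrays and 1 scrambled array were not above background.

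JUN and JUND gave the most precise values among the members. JUN, the founding subunit and the partner of most FOS proteins, had log2 signals of 10.72, 10.78 and 10.86 on scrambled arrays 1, 2a and 2b. On SOX4 shRNA arrays 1 to 3 it had 10.73, 10.82 and 10.95. These ranges overlap over most of their length, and the spread within each group is larger than the gap between the means. The difference was 0.05 ± 0.06 (SE, n = 3 per group; adjusted p = 0.59, limma), with a 95% interval of -0.08 to 0.18, that is from 0.947-fold to 1.13-fold. In deposited intensity, which is not corrected for the brightness of each array, JUN averaged 1816 ± 125 with the scrambled hairpin and 1987 ± 180 with the SOX4 hairpin (SD, n = 3).

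JUND, the subunit that is usually present in resting cells and less inducible than its relatives, had 11.46, 11.45 and 11.53 with the scrambled hairpin. It had 11.40, 11.42 and 11.58 with the SOX4 hairpin. The third SOX4 shRNA array was the highest of all 6 for JUND, as it was for JUN, FOSL1 and FOSL2, and the other 2 were the lowest for JUND. The difference was -0.01 ± 0.06 (SE, n = 3 per group; adjusted p = 0.88, limma), with a 95% interval of -0.13 to 0.10. On the fold scale this interval runs from 0.913 to 1.07.

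JUNB, a JUN protein that can oppose JUN on some promoters, was close to the detection limit. Its log2 signals were 5.52, 5.42 and 5.18 on the scrambled arrays and 4.62, 5.15 and 5.31 on the SOX4 shRNA arrays. It was detected on 2 scrambled arrays and on 1 SOX4 shRNA array, and that SOX4 shRNA array lay within the scrambled range. The difference was -0.35 ± 0.22 (SE, n = 3 per group; adjusted p = 0.24, limma), and its 95% interval of -0.80 to 0.10 is wide. Without SOX4 shRNA array 1 the difference was -0.15 (adjusted p = 0.67, limma). With the authors' values it was -0.74, with an adjusted p of 0.17 over the genes tested here and 0.37 over all their genes (limma). JUNB passed in none of these fits. The authors' deposited table lists JUNB at a fold of 0.58.

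The 250 bases upstream of the start of JUN, JUND and FOSL2 are shown from the RefSeq table of GRCh38.p14, 5′ to 3′ on the strand of the gene. The first 2 are shown because they belong to the members with the tightest intervals around 0, and FOSL2 because it had the largest measured difference. Capitals mark matches to an AP-1 type element.
JUN, chr1:58784048-58784297, minus strand: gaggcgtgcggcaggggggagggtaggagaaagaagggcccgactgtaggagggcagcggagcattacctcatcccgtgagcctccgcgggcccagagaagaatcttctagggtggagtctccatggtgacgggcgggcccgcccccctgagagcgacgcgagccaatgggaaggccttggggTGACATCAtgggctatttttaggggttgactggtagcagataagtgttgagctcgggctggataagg
JUND, chr19:18281623-18281872, minus strand: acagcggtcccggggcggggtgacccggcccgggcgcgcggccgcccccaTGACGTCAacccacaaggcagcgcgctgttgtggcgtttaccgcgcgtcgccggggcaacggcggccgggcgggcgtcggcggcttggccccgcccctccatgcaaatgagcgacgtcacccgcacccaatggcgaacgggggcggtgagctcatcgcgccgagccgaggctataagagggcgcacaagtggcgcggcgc
FOSL2, chr2:28392608-28392857, plus strand: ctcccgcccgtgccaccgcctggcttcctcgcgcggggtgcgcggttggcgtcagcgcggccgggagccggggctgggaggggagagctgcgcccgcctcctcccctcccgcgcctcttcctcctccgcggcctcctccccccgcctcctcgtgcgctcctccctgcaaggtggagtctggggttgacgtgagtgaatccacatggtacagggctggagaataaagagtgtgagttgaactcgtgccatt
The motifs searched, on both strands, were TGANTCA and its variant TGACATCA, the cyclic AMP type element TGACGTCA, the SOX type motif AACAANG and the CArG box of serum response elements, none of which overlapped another here. JUN holds TGACATCA, which begins 67 bases before the start, a variant found upstream of 2.38% of 35116 starts. JUND holds TGACGTCA, 200 bases before the start, which is found upstream of 1.65% of starts, and MAFF holds it as well, 54 bases before one of its 2 listed starts. The other MAFF start has a match to the SOX type motif, AACAAGG, a motif found upstream of 10.4% of starts. TGANTCA is found upstream of 6.57% of starts and the CArG box upstream of 1.16%. Neither was found in the 250 bases upstream of the 7 members listed in the table (FOS, FOSB, FOSL2, JUN, JUNB, JUND and MAFF). FOS, FOSB, FOSL2 and JUNB had no match to any of the motifs there. Only these 250 bases were searched, for the members and for all starts, so elements further upstream would be missed. FOSL1, BATF3 and MAFK were not searched. A match is a description of these letters, not a bound site.

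**Figure D2:**
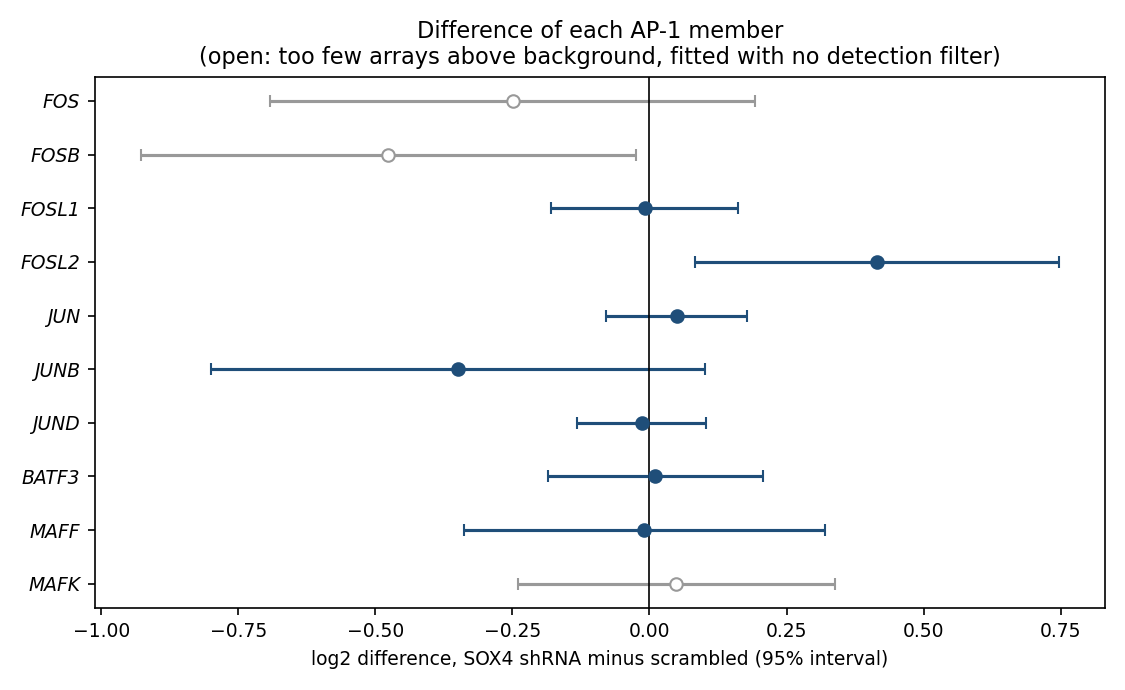
Log2 difference of each AP-1 member, SOX4 shRNA minus scrambled, with its 95% interval from limma. Filled points are the 7 members tested and open points the 3 with too few detected arrays, fitted with no detection filter. JUN and JUND have the narrowest intervals, and among the tested members the interval of FOSL2 alone leaves out 0.

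Among the FOS proteins, FOSL2 had the largest measured difference and FOSL1 one close to 0. FOSL2, or FRA2, a FOS relative without the activation domain of FOS, had log2 signals of 6.001, 6.475 and 5.792 on scrambled arrays 1, 2a and 2b. On the SOX4 shRNA arrays it had 6.54, 6.32 and 6.65. Scrambled array 2a lay inside the range of the SOX4 shRNA arrays, and the other scrambled arrays lay below all of them. The difference was 0.41 ± 0.16 (SE, n = 3 per group), or 1.33-fold, with a 95% interval of 0.08 to 0.75. The adjusted p was 0.053 in limma, just outside the threshold. In deposited intensity FOSL2 read 156, 190 and 150 on the scrambled arrays and 193, 182 and 208 on the SOX4 shRNA arrays, against array medians of 119 to 124.

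The call on FOSL2 changed with the setting. Without scrambled array 2a the difference was 0.61 with an adjusted p of 0.0067, and without SOX4 shRNA array 2 it was 0.51 with an adjusted p of 0.041. Without scrambled array 2b it was 0.27 with an adjusted p of 0.26. Cyclic loess normalization gave 0.42 with an adjusted p of 0.049, and testing only genes detected on all 6 arrays gave 0.41 with 0.047. The authors' values gave 0.58, with an adjusted p of 0.12 over the genes tested here and 0.21 over all genes of their value table. The authors' deposited table lists a fold of 1.48. Over all alternatives the adjusted p ran from 0.0067 to 0.26, and the direction was upward in each.

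**Figure D3:**
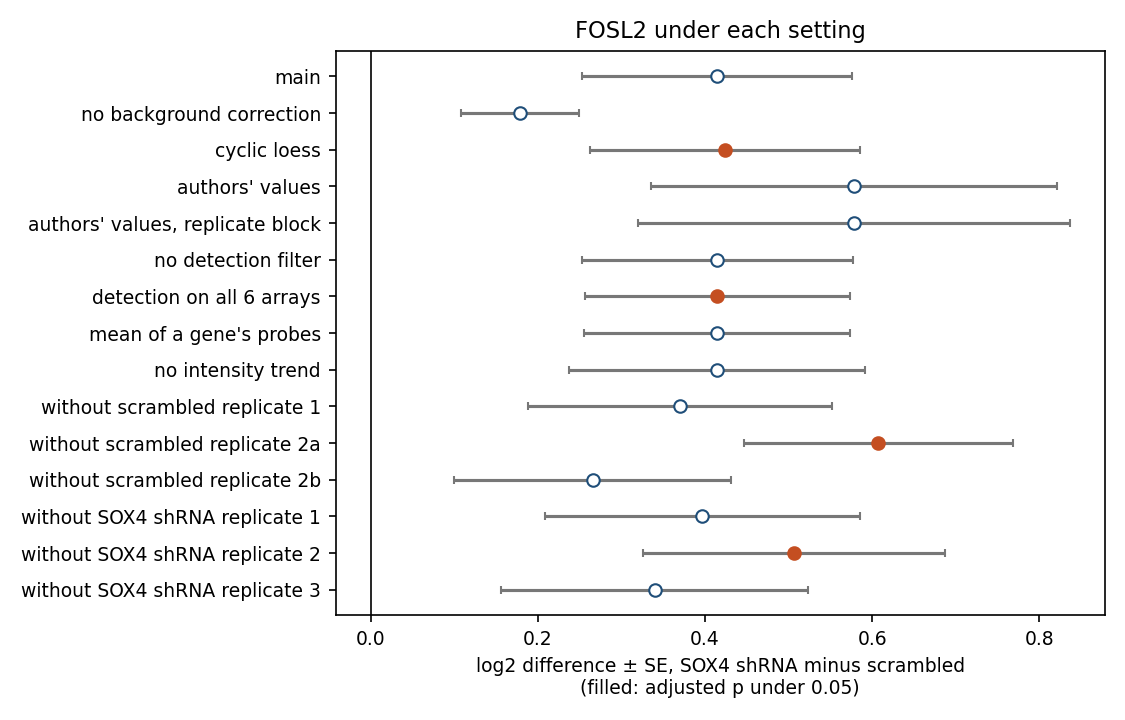
Log2 difference of FOSL2, SOX4 shRNA minus scrambled, ± SE under the main setting and each alternative. Filled points have an adjusted p under 0.05, which 4 alternatives reach, and all points lie above 0, from 0.18 with no background correction to 0.61 without scrambled array 2a.

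FOSL1, or FRA1, the FOS relative associated with mesenchymal and invasive breast cancer cells, was detected on all 6 arrays. Its log2 signals were 9.12, 9.09 and 9.23 with the scrambled hairpin and 9.24, 8.92 and 9.25 with the SOX4 hairpin. The SOX4 shRNA arrays include both the lowest value and the 2 highest, so the scrambled values lie inside their range. The difference was -0.01 ± 0.08 (SE, n = 3 per group; adjusted p = 0.95, limma), with a 95% interval of -0.18 to 0.16, or 0.883-fold to 1.12-fold. Deposited intensities were 609, 650 and 670 on the scrambled arrays and 716, 601 and 751 on the SOX4 shRNA arrays.

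FOS and FOSB, the inducible FOS proteins, were at or near the background of the array. The FOS probe was detected on 0 of the 6 arrays, with deposited intensities of 129, 137 and 120 on the scrambled arrays and 118, 132 and 125 on the SOX4 shRNA arrays. The groups overlap, and the level of FOS could not be compared. The FOSB probe read 128, 141 and 137 on the scrambled arrays, 2 of which detected it, and 123, 130 and 125 on the SOX4 shRNA arrays, none of which did.

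FOSB was the one member whose normalized values did not overlap between the groups. They were 5.05, 5.38 and 5.37 with the scrambled hairpin and 4.71, 4.97 and 4.69 with the SOX4 hairpin. Such separation was found for 22.2% of all genes when no detection filter was applied. In that fit, which called 8.77% of 34694 genes, FOSB had a difference of -0.48 ± 0.22 (SE, n = 3 per group; adjusted p = 0.24, limma). With SOX4 shRNA set at the detection limit, the scrambled mean of FOSB was 1.01-fold above it. Only 2 of the 3 scrambled arrays detected the probe, so this value does not bound a fold. In the authors' value table FOSB read 3.72, 4.39 and 4.38 with the scrambled hairpin and 2.96, 3.55 and 2.90 with the SOX4 hairpin. The difference there was -1.03 ± 0.32 (SE), with an unadjusted p of 0.0074 and an adjusted p of 0.092 over all genes of that table in limma. The authors' deposited table lists FOSB at a fold of 0.47 and FOS at 0.66.

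BATF3, a bZIP factor that pairs with JUN proteins and is best known from dendritic cells, was detected on all 6 arrays. Its log2 signals were 8.01, 7.75 and 7.92 with the scrambled hairpin and 8.04, 7.83 and 7.84 with the SOX4 hairpin. These ranges are nearly the same, and the difference was 0.01 ± 0.10 (SE, n = 3 per group; adjusted p = 0.95, limma), with a 95% interval of -0.19 to 0.21.

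Of the small MAF proteins, MAFF likewise showed no difference past the threshold, and MAFK could not be tested. MAFF, which binds as a homodimer or with NRF proteins, had 4 probes, of which 2 were detected on enough arrays to be kept. The brightest probe, ILMN_1680139, had log2 signals of 6.36, 6.05 and 6.39 on the scrambled arrays and 6.54, 6.31 and 5.92 on the SOX4 shRNA arrays. The SOX4 shRNA values reach both above and below the scrambled ones, and the difference was -0.01 ± 0.16 (SE, n = 3 per group; adjusted p = 0.98, limma), with an interval of -0.34 to 0.32. The other kept MAFF probe, ILMN_2322375, gave -0.11 (adjusted p = 0.71 among all kept probes, limma). The remaining MAFF probes were detected on 0 arrays and gave -0.18 and 0.22. The MAFK probe was also detected on 0 arrays, with deposited intensities between 112 and 124, so its level could not be compared.

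Some genes of other bZIP proteins that can share partners or sites with AP-1 passed the test. Of 30 such genes, 22 were measured, and 5 rose and 2 fell (7 of 22, 31.8%, against 30.6% of all genes), with a median difference of 0.07. Their list was made with earlier results of these arrays known. CEBPG, a C/EBP protein that lacks an activation domain, fell by 1.46 ± 0.09 in log2 signal (SE, n = 3 per group; adjusted p = 1.4e-12, limma). Its values were 8.67, 8.85 and 8.68 with the scrambled hairpin and 7.19, 7.32 and 7.29 with the SOX4 hairpin, far apart compared with the spread in either group. BATF, a relative of BATF3 that pairs with JUN proteins, rose by 0.73 ± 0.16 from 5.49, 5.62 and 5.46 to 6.38, 6.14 and 6.23 (adjusted p = 0.00085, limma). The scrambled values of BATF lie close to the detection limit, although the probe was detected on every array.

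NFE2L3, a cap'n'collar factor that pairs with small MAF proteins, rose by 0.65 ± 0.06 from 9.89, 9.91 and 9.84 to 10.54, 10.57 and 10.45 (SE, n = 3 per group; adjusted p = 5.8e-09, limma). With the authors' values its difference was 0.43 (adjusted p = 0.0498, limma), but their deposited scrambled mean was 5.95, against 9.88 here. CEBPD, an inducible C/EBP protein, rose by 0.58 ± 0.09, and its SOX4 shRNA values of 8.42, 8.50 and 8.46 lay above every scrambled value. JDP2, a repressor that pairs with JUN, and ATF5 also rose, by 0.55 and 0.40. These last 2 were named after their values were seen. DDIT3, a stress-induced C/EBP relative, fell by 0.30 ± 0.10 (adjusted p = 0.020, limma). Its lowest scrambled value, 7.948, lay just above its highest SOX4 shRNA value, 7.942. The call of DDIT3 was lost without scrambled array 1 (-0.27) or 2b (-0.29), without SOX4 shRNA array 2 (-0.25) or 3 (-0.25) and with the authors' values (-0.33). The count of lowered genes of the list was 1 in each of these fits. With no intensity trend the call of DDIT3 was also lost (-0.30, adjusted p = 0.074, limma), while the count stayed at 2. ATF2, ATF3 and MAFG, close partners of JUN or of the small MAF family, had differences of 0.32, 0.30 and -0.09 that did not pass (adjusted p = 0.12, 0.13 and 0.64, limma).

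**Figure D4:**
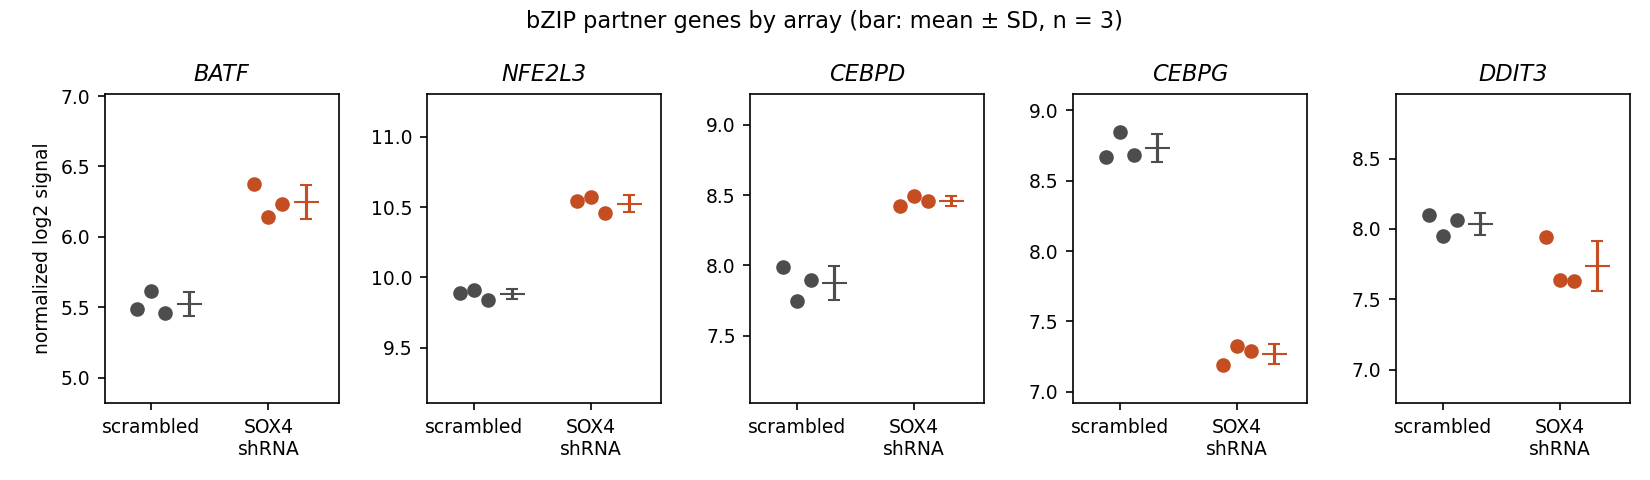
Normalized log2 signal of the 5 named bZIP partner genes on the 3 scrambled and 3 SOX4 shRNA arrays, on y axes of equal length. Points are arrays and bars are means ± SD. BATF, NFE2L3 and CEBPD are higher and CEBPG lower on every SOX4 shRNA array, and the groups of DDIT3 nearly touch.

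Genes listed as MAP kinase inputs to AP-1 moved in both directions. The list holds transcription factors and other regulators besides kinases, and the raised genes include both kinases and transcription factors. Of 29 genes, 26 were measured, 10 of them rose and 3 fell (13 of 26, 50.0%, against 30.6% of all genes), with a median difference of 0.06. With the authors' values 6 rose, and the count of all genes called higher was 1434 instead of 1891. The genes of this list were chosen with earlier results of these arrays known, and the difference between the shares was not tested. ETS2, a transcription factor that can bind beside AP-1, rose by 0.84 ± 0.10, MAP2K3, an activating kinase of p38, by 0.80 ± 0.08, and MAP3K1, an upstream kinase of the JNK route, by 0.64 ± 0.08 (SE, n = 3 per group). MAP2K4, which activates the JUN kinases, fell by 0.82 ± 0.08, and MAP2K1, which activates ERK kinases, by 0.44 ± 0.06 (SE, n = 3 per group). The values of MAP2K4 were 8.36, 8.47 and 8.41 on the scrambled arrays and 7.61, 7.60 and 7.56 on the SOX4 shRNA arrays. Other kept probes gave smaller differences, 0.51 for MAP2K3 and -0.42 for MAP2K4. The call of MAP2K3 was lost with the authors' values (0.50). Their deposited means for MAP2K3 were 2.46 (scrambled) and 2.98 (SOX4 shRNA), against 9.40 and 10.20 here, so that fit is not like for like. The JUN kinases themselves, MAPK8 and MAPK9, had differences of 0.01 and -0.04 and did not pass (adjusted p = 0.98 and 0.72, limma). The MAPK8 probe was close to the detection limit, detected on 2 scrambled arrays and 3 SOX4 shRNA arrays. Its interval of -0.46 to 0.48 is wide, so the small difference does not show that MAPK8 was unchanged. SRF, which drives serum induction of FOS, rose by 0.20 (adjusted p = 0.0080, limma). MAPK8, MAPK9 and SRF were named after their values were seen.

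Immediate early genes other than the AP-1 subunits also split. Of 31 genes, 24 were measured, 5 rose and 8 fell (13 of 24, 54.2%, against 30.6% of all genes), with a median difference of -0.03. These genes too were listed with earlier results of these arrays known, and the difference between the shares was not tested. KLF4, a zinc finger factor, rose by 0.55 ± 0.08, the phosphatase gene DUSP5 by 0.50 ± 0.06 and MYC by 0.40 ± 0.06 (SE, n = 3 per group). CTGF, a secreted matricellular protein, fell by 0.65 ± 0.05 and the stress gene GADD45B by 0.55 ± 0.10 (SE, n = 3 per group). PTGS2, the inducible cyclooxygenase, was detected on no SOX4 shRNA array and was at least 1.63-fold lower (adjusted p = 0.00034, limma). Without scrambled array 2a, 5 genes of this list fell, and the count of all genes called lower was 1596 instead of 1916. EGR1, the immediate early zinc finger factor induced by the same route as FOS, fell by 0.53 (adjusted p = 0.0014, limma) and was named after its value was seen.

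Most measured genes commonly reported as AP-1 targets passed the test, in both directions. Of 37 such genes, 28 were measured, 11 rose and 13 fell, which is 85.7% against 30.6% of all genes, with a median difference of -0.12. The difference between the shares of this list and of the members was not tested, and CTGF stands on both this list and the immediate early one. The brightest probe of the cytokine gene IL24 was at least 8.85-fold higher and the chemokine gene CCL2 at least 2.58-fold higher, both detected on no scrambled array. The other kept probes of IL24, each detected on 1 scrambled array, gave smaller differences of 1.76 and 2.20, so the bound holds for that probe alone. The chemokine gene IL8 rose by 2.04 ± 0.08 in log2 signal, from 7.47, 7.43 and 7.40 to 9.35, 9.57 and 9.50 (SE, n = 3 per group; adjusted p = 2.8e-16, limma). The cytokine gene IL11 fell by 1.94 ± 0.13, the collagenase MMP1 by 1.80 ± 0.16 and the receptor EGFR by 1.07 ± 0.09 (SE, n = 3 per group). Another kept probe gave 1.502 for IL8 and -0.61 for EGFR. EGFR had -0.62 with the authors' values, but their deposited scrambled mean was 3.88, against 8.15 here. MMP1 was detected on 2 of the 3 SOX4 shRNA arrays. Many of these genes have other known regulators, and their list was drawn up with earlier results of these arrays known.

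**Figure D5:**
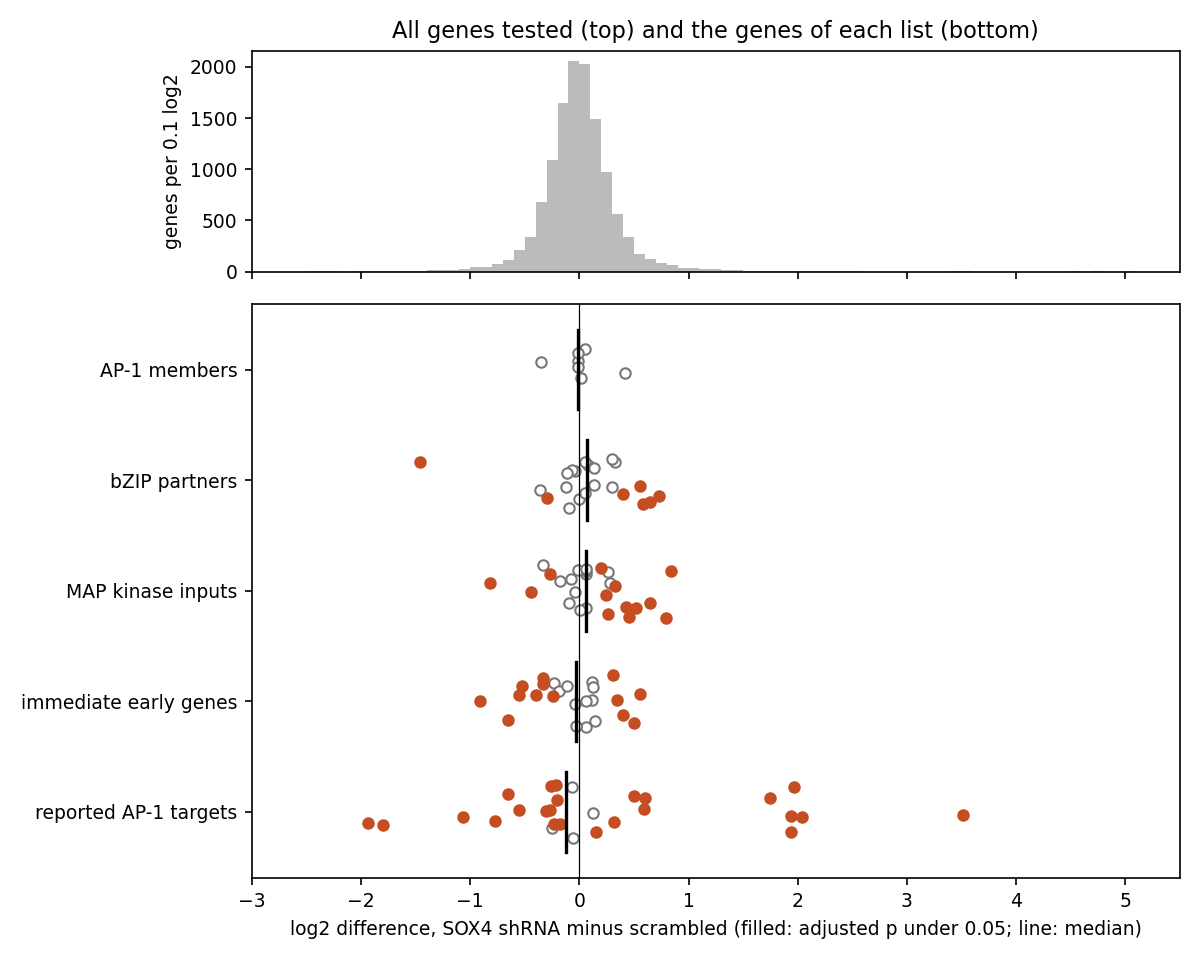
Log2 differences, SOX4 shRNA minus scrambled, of all 12451 genes tested (histogram, counts per 0.1) and of the measured genes of each list (points; filled at an adjusted p under 0.05, black line at the median). The 7 AP-1 members lie between -0.35 and 0.41 with no filled point, while the reported targets spread from -1.94 to 3.51. Fitted values of genes whose plotted probe was undetected in a group (IL24, CCL2, MMP9 and PTGS2) are not measured folds.

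The genes whose centred profile over the 6 arrays lay closest to that of FOSL2 were BCAN, GYG2 and MYLK. Likeness was the root mean square difference of log2 values, each gene centred on its own mean, and it came to 0.078, 0.089 and 0.094. BCAN, a brain proteoglycan gene, had a difference of 0.49 ± 0.21 and was detected on 2 scrambled arrays, while GYG2, a glycogenin gene, had 0.50 ± 0.20 and was detected on 1 (SE, n = 3 per group). Neither passed the threshold (adjusted p = 0.074 and 0.052, limma). BCAN ran from 0.29 to 0.68 with an array left out and passed only without scrambled array 2a, where it was highest. GYG2 passed in 6 alternatives, among them the authors' values (0.84, adjusted p = 0.0087, limma). MYLK, the myosin light chain kinase, was detected on every array and rose by 0.44 ± 0.12 (adjusted p = 0.0053, limma), a call lost with the authors' values (0.73, adjusted p = 0.0501). In each of these genes, as in FOSL2, array 2a was the highest of the scrambled arrays and 2b the lowest. The genes were chosen by likeness to FOSL2 over these same arrays, so this order and their differences are not separate observations.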

How the data were processed

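Total RNA of 6 samples was labelled and hybridised to Illumina HumanHT-12 v4 BeadChips, and GenomeStudio 2011.1 is named in the submitters' processing notes. The authors deposited linear probe intensities before any normalization, and a detection p-value for every intensity. They also deposited log2 values, 1 row per gene, whose normalization is not given in the sources used here, and a table of log2 group means with a linear fold, made by RMA in ArrayStar according to its header. A mean column of that table names another hairpin, but a header line names the SOX4 samples. A pair of intensity columns carry the heading of scrambled replicate 2, so both were used without a number of their own.

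The neqc function (limma 3.58.1, R 4.3.3) corrected, quantile normalized and log2 transformed the intensities (offset 16, background from the detection p-values). An added offset makes log2 differences of dim probes smaller. SOX4 had -2.43 here and -3.22 with the authors' values. JUNB, FOSB and FOSL2 also had larger differences there, while JUN and JUND hardly differed. The share of this due to the offset was not tested. A probe was kept if 3 of 6 arrays or more had a detection p below 0.01, which left 15717, and the brightest stood for its gene. The comparison used lmFit and eBayes, with a trend on intensity, adjusted by Benjamini-Hochberg over all 12451 rows at 0.05. Intervals are limma's 95% intervals without adjustment. For a called gene detected on no array of a group, the fold is a bound against the detection limit. The fit was tested on simulated data with known changes. These were placed only in probes well above background and were larger than the fitted change of FOSL2. The simulation thus does not bear on members near background or on small differences. Figures were drawn with matplotlib 3.10.9.

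The members, the gene lists and the tests were chosen with earlier results of these data known. The CArG box was searched as CC, 6 bases of A or T, and GG. The rule for named genes took SOX4, the 10 members, up to 3 raised and 3 lowered non-overlapping genes per list, and the 3 genes closest in profile to the member with the largest difference detected on all arrays. Other genes were named after their values were seen. No group of 3 arrays is large enough to flag an outlier. Slides were not used as a block because the sources used here name none.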

Additional observations from a re-analysis of the deposited data

How the results depend on the processing

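Of 141 alternative fits of the members, 4 had an adjusted p under 0.05, all of FOSL2. In these alternatives the authors' values were fitted over the genes tested here, and over all their genes for FOS, FOSB and MAFK. The count of members called higher was therefore 1 instead of 0 with cyclic loess and with detection on all 6 arrays, and 0 to 1 with an array left out, and no member was called lower in any setting. With an array left out FOSL2 ran from 0.27 to 0.61, FOSL1 from -0.066 to 0.10, JUN from -0.0086 to 0.10, JUND from -0.072 to 0.017, BATF3 from -0.062 to 0.070, JUNB from -0.49 to -0.15, MAFF from -0.15 to 0.16 and MAFK from -0.033 to 0.20. Apart from FOSL2, none of these was called in any setting. Cyclic loess gave 0.42 for FOSL2, 0.0085 for FOSL1 and 0.013 for MAFF, detection on all 6 arrays gave 0.41 for FOSL2, and the authors' values gave 0.032 for MAFF. Of the bZIP partners, 1 fell instead of 2 with the authors' values, and 1 to 2 with an array left out. Of the immediate early genes, 5 to 8 fell with an array left out. Of the list of MAP kinase inputs, 6 rose instead of 10 with the authors' values. The counts over all genes fell too. With the authors' values they were 1434 instead of 1891 higher and 1418 instead of 1916 lower. With an array left out, 1565 to 1660 were lower. The causes were not tested. Of 357 alternative fits of other named genes, 338 kept direction and call, 12 lost the call, 7 gained it (6 of GYG2, 1 of BCAN) and 0 changed direction. The columns of the authors' values carry replicate numbers, but same-numbered arrays did not deviate together (correlations of 0.016, -0.0011 and -0.023). With the replicate block on those values MAFF had 0.032 and 6 genes of the MAP kinase input list rose, as without it. FOSL2 had 0.58 with an adjusted p of 0.15. The block ended the calls of NFE2L3 (0.43, adjusted p = 0.088, limma) and EGFR (-0.62, adjusted p = 0.067, limma). In the authors' deposited means MAFF, MAP2K3, NFE2L3 and EGFR lay well below the probes used here. Fits of these genes with the authors' values are therefore not like for like. Probes near background limit what can be seen of FOS, FOSB, JUNB and MAFK.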
